A study of Homo sapiens with 3 samples.

Results

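The insulin-like growth factor binding proteins (IGFBPs), the receptors for insulin-like growth factors and insulin, and the adaptor IRS1 were followed in parental and gemcitabine-resistant bladder cancer cells. The genes were chosen by name, namely the binding proteins IGFBP2, IGFBP3, IGFBP4, IGFBP5, IGFBP6 and IGFBP7, the receptors IGF1R, IGF2R and INSR, and IRS1, and all 10 were found among the 29960 genes of the count table. The cells were 5637, an established human bladder cancer line, either as the parental line (genotype label WT) or as a derivative resistant to gemcitabine, a deoxycytidine analogue used against bladder cancer. Both were labelled untreated and were kept in RPMI medium with fetal bovine serum, which itself carries insulin-like growth factors. The treatment note speaks of an acute gemcitabine treatment that gave the resistant cells, whereas the study's methods describe continuous exposure. Poly(A)-selected RNA of 1 parental and 2 resistant libraries (Parental 1, Resistant 1 and Resistant 2) was compared. By the study's methods, single-cell clones were sequenced. The question was which transcripts differed along with gemcitabine resistance. Total counts were 14475531 in Parental 1, 15836788 in Resistant 1 and 17461941 in Resistant 2. CPM are counts scaled to the library size as adjusted by TMM normalisation, on which 3 reads corresponded to 0.213, 0.184 and 0.173 CPM.

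IGFBPs are secreted proteins that hold insulin-like growth factors in the extracellular space. They prolong the life of the ligand, restrict its access to the receptor, and release it when proteases cut them. IGF1R and INSR are tyrosine kinases that signal through IRS1 to the PI3K/AKT and RAS/MAPK cascades, whereas IGF2R, also the cation-independent mannose 6-phosphate receptor, has no kinase and takes IGF2 to the lysosome. IGFBP7 is a relative with low affinity for these ligands. Only RNA was measured, and amounts of secreted protein were not. In bulk RNA, fewer cells that express a gene and less RNA per cell cannot be told apart.

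In the resistant clones the transcripts of IGFBP3, IGFBP5 and IGFBP6 fell. IGFBP3 fell 4.82-fold and IGFBP6 fell 3.65-fold, and IGFBP5 went from 1847 reads in the parental library to 1 and 5 reads. Of the 9 members that passed the filter on low counts, these 3 passed the test as lower, none passed as higher, and 6 did not pass (edgeR quasi-likelihood test, Benjamini-Hochberg adjusted p under 0.05 over 15643 genes). Among all genes tested, 0.447% passed as lower and 0.134% as higher. The members were chosen with earlier results of these data known, so these counts describe them and are no test of the members as a set. Without adjustment, 5 of the 9 members had a p under 0.05, as did 1496 of the 15643 genes. Without the filter on low counts, no gene passed, the 3 members included, and their adjusted p in edgeR was 0.726 for IGFBP3 and IGFBP6 and 0.378 for IGFBP5. By size alone, 4 members (IGFBP3, IGFBP5, IGFBP6 and IGF1R) were at least 2-fold lower than Parental 1 in both resistant libraries, beside 3.65% of all genes tested, and 1 (IGFBP7) was at least 2-fold higher in both, beside 5.2%. The median log2 fold change was -0.42 over the 9 members and 0.03 over all genes tested.

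This comparison set 1 parental library against 2 resistant ones. The spread of each gene came from the 2 resistant clones alone, with 1 residual degree of freedom. The parental library was assumed to vary like them. The edgeR test also shared information on the spread across genes, which gave a median of 8.49 total degrees of freedom. The p-values and intervals rest on that sharing. An exact permutation test of 1 library against 2 cannot go below p = 0.333. The table also gives the authors' mean of normalised counts for each group. By the labels a group holds 3 independent clones, so that these means cover the libraries used here and also clones not analysed here. The means are therefore not independent of the 3 libraries, and they carry no error. Every fold between these means was taken after adding 1 to each. By them, 4 tested members were at least 2-fold lower, beside 3.28% of all genes tested, and 1 was at least 2-fold higher, beside 4.19%.

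**Figure D1:**
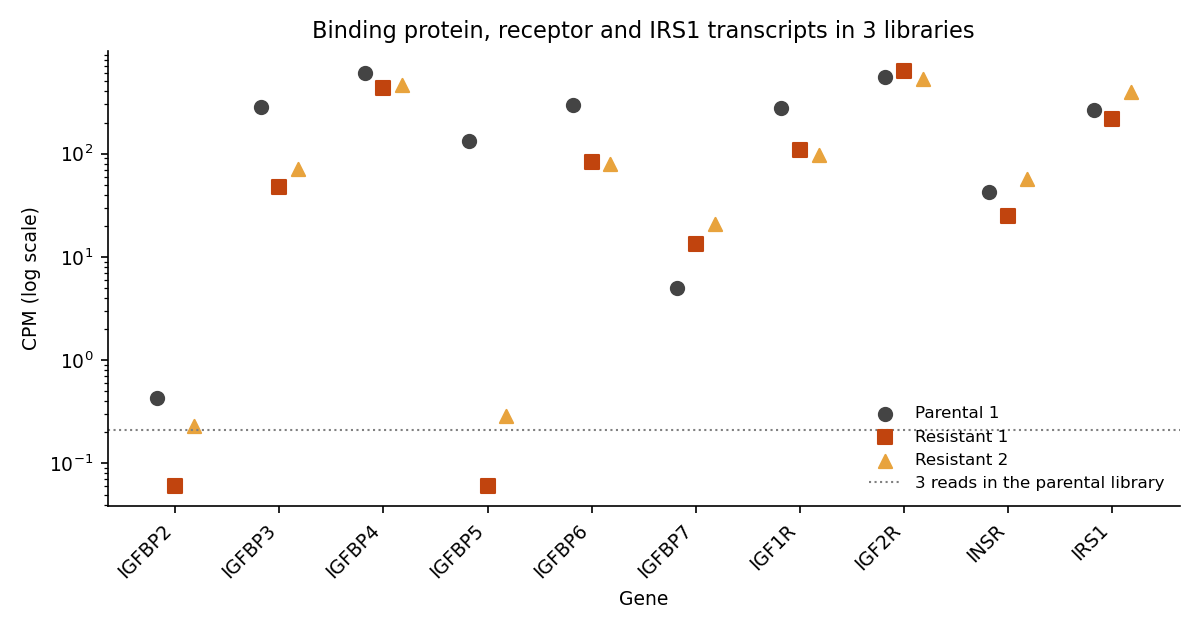
CPM (log scale) of the 10 members in Parental 1 (circles), Resistant 1 (squares) and Resistant 2 (triangles), each point being 1 library and the dotted line marking 3 reads in the parental library. IGFBP3, IGFBP5, IGFBP6 and IGF1R lie lower in both resistant clones, IGFBP7 lies higher, and IGFBP2 is within a few reads of 0 in every library.

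The promoters of the 3 binding protein genes that fell are shown because the genes moved together in the same clones. Each is the 250 bases before the RefSeq start (GRCh38.p14), read 5′ to 3′ on the gene's own strand. IGFBP3 lies at chr7:45921273-45921522 on the minus strand, IGFBP5 at chr2:216695550-216695799 on the minus strand and IGFBP6 at chr12:53097417-53097666 on the plus strand. Capitals mark matches, on either strand, to 4 motifs: the GC box GGGCGG, the TATA box TATAAA, the TATA-like TATATA and the E-box CACGTG, of which both TATA forms can overlap each other.
IGFBP3: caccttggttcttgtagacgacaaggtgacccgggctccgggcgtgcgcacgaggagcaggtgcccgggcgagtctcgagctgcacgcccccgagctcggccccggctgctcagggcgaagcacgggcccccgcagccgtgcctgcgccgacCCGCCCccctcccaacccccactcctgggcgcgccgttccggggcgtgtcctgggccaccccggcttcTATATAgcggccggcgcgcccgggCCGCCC
IGFBP5: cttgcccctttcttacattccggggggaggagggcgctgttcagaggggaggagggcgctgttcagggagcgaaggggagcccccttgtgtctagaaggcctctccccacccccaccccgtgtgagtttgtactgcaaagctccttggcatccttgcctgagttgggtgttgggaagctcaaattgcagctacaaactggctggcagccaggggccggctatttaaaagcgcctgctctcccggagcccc
IGFBP6: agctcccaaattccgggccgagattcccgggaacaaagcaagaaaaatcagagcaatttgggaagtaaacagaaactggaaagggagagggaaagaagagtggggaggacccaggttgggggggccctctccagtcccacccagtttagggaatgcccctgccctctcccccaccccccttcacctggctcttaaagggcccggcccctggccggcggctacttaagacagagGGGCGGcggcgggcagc
By exact matches to these 4 motifs the 3 windows had little in common, and inexact forms were not searched. IGFBP3 held 2 GC boxes, both on the opposite strand, and 1 TATA-like match that starts 30 bases before the gene. IGFBP6 held 1 GC box near its start, and IGFBP5 held none of the 4 motifs. A GC box occurred in 42.6% of 35116 RefSeq promoters of the same length, TATAAA in 10.7%, TATATA in 3.73% and CACGTG in 6.34%. The IGFBP3 window was rich in CG pairs, with 32 pairs and a GC content of 76.0%, against medians of 11 pairs and 58.0% over all promoters. IGFBP5 and IGFBP6 held 8 and 9 pairs, each at a GC content of 61.2%. A match is a description of the letters and no measure of binding, and DNA methylation was not measured in these libraries.

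IGFBP3 (ENSG00000146674, chr7:45951949-45961473, hg19, minus strand) encodes the main carrier of insulin-like growth factors in serum. It was counted 4013 times in Parental 1, 776 times in Resistant 1 and 1227 times in Resistant 2, or at 285, 47.5 and 70.7 CPM. Both resistant clones were far below the parental library, and they differed from each other 1.49-fold (95% counting interval 1.36 to 1.63). The log2 fold change was -2.27 ± 0.35 (SE, with a 95% interval of -3.08 to -1.46), with an adjusted p of 0.0367 in the edgeR test. The authors' group means were 804 in resistant and 4966 in parental cells, a 6.17-fold difference in the same direction.

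IGFBP5 (ENSG00000115461, chr2:217536828-217560248, hg19, minus strand), a conserved carrier that also binds extracellular matrix, had 1847 reads in Parental 1, 1 in Resistant 1 and 5 in Resistant 2. These are 131, 0.0612 and 0.288 CPM, so that the gene went from a clearly expressed transcript to the edge of detection. Resistant 1 lay under the level of 3 reads and Resistant 2 just above it. Over pooled counts the resistant level was 737-fold lower, with an exact counting interval of 338 to 2010 that covers counting error only. The adjusted p was 0.000539 (edgeR), and the fitted log2 fold change of -9.53 ± 0.56 rests on the 6 resistant reads. Without Resistant 1 it was -8.83, and without Resistant 2 it was -11.07. By the authors' group means the difference was smaller, 35.4 in resistant and 2651 in parental cells (72.9-fold after adding 1 to each). That resistant mean exceeds the level of both resistant libraries used here, and it also covers a clone that was not analysed here.

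IGFBP6 (ENSG00000167779, chr12:53491220-53496129, hg19, plus strand), a carrier that prefers IGF2, had 4163, 1344 and 1386 reads in Parental 1, Resistant 1 and Resistant 2. The levels were 296, 82.3 and 79.9 CPM. Both resistant clones were nearly equal, with a ratio of 0.971 (95% counting interval 0.901 to 1.05), and both lay well below the parental library. The log2 fold change was -1.87 ± 0.31, with an adjusted p of 0.0494 (edgeR), close to the threshold. Under 2 of the 3 alternatives that lost the call, the adjusted p moved only to 0.0503 and 0.0506. The authors' group means, 1593 in resistant and 3516 in parental cells, gave a smaller difference of 2.21-fold.

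IGFBP4 (ENSG00000141753, chr17:38599702-38613983, hg19, plus strand), the carrier that the protease PAPPA cleaves, was the most abundant binding protein transcript per length in every library. Its counts were 8479, 7135 and 8078 in Parental 1, Resistant 1 and Resistant 2, or 602, 437 and 466 CPM. Both clones were a little below the parental library, but the log2 fold change of -0.42 (95% interval -1.21 to 0.38) did not pass the edgeR test, with an adjusted p of 0.808. The interval leaves room for a fall of more than 2-fold as well as for a small rise.

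IGFBP7 (ENSG00000163453, chr4:57896939-57976551, hg19, minus strand), the low-affinity relative, was the member whose values lay highest against the parental library. It had 70 reads in Parental 1, 220 in Resistant 1 and 360 in Resistant 2, or 4.97, 13.5 and 20.8 CPM. Both resistant clones were above the parental library, and Resistant 2 was 1.54 times Resistant 1 (95% counting interval 1.30 to 1.83). The fold change was 3.44 (log2 1.78, 95% interval 0.64 to 2.93), and the gene did not pass the edgeR test (adjusted p 0.259, unadjusted 0.00672). The authors' group means were 202 and 62.9, a 3.18-fold difference after adding 1 to each. The gene overlaps POLR2B, an RNA polymerase II subunit gene on the opposite strand, which had 702, 1087 and 851 reads. Whether counting used strand is not given in the sources used here, so a share of IGFBP7 reads may belong to POLR2B.

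IGFBP2 (ENSG00000115457, chr2:217497551-217529159, hg19, plus strand), a carrier common in epithelial tumours, was close to absent and did not pass the filter on low counts. It had 6, 1 and 4 reads in Parental 1, Resistant 1 and Resistant 2. The pooled resistant to parental ratio of 0.348 had a counting interval of 0.0841 to 1.37, so no difference was detectable at this depth. The authors' group means were 2.98 and 17.4, and the parental mean thus exceeded the 6 reads of Parental 1. IGFBP2 and IGFBP5 are neighbours on opposite strands of chromosome 2, separated by 7668 bases.

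**Figure D2:**
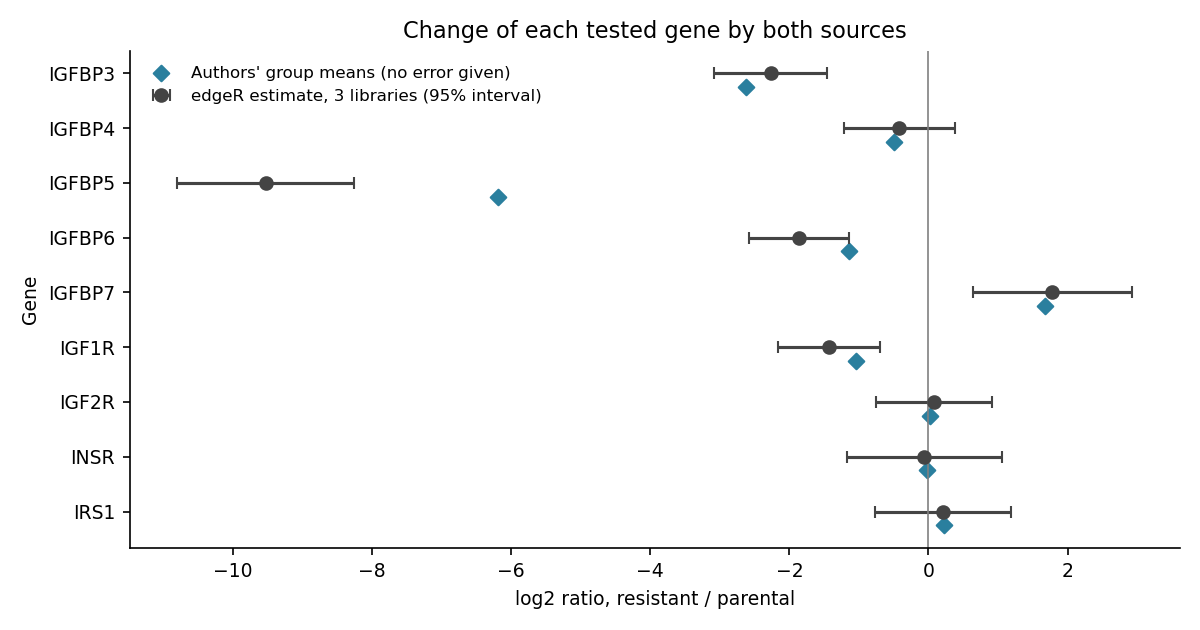
log2 ratio of resistant to parental for the 9 members that passed the filter. Circles with bars are edgeR estimates with 95% intervals over 1 parental and 2 resistant libraries, and diamonds are ratios of the authors' group means, which have no error. Each tested member has the same sign by both, but the group means include the libraries used here and are not independent of them. IGFBP5 is the member for which the estimate and the ratio lie farthest apart.

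Levels of different genes were compared per length, as FPKM (fragments scaled to gene length and library size). In Parental 1 the order was IGFBP4 (266 FPKM), IGFBP6 (244), IGFBP3 (123), IGF2R (58.5), IRS1 (42.6), IGF1R (22.9), IGFBP5 (20.5), INSR (4.59), IGFBP7 (3.39) and IGFBP2 (0.0939). IGFBP4 and IGFBP6 thus stood above 99.0% and 98.9% of the genes tested, whereas INSR and IGFBP7 stood above 45.6% and 39.5%. In both resistant clones IGFBP4 and IGFBP6 still held the first and second places. The second place was held narrowly, with IGFBP6 at 72.1 FPKM against 70.9 for IGF2R in Resistant 1. In Resistant 2 it was at 67.4 against 65.2 for IRS1. IGF2R and IRS1 passed above IGFBP3, and IGFBP7 stood above IGF1R, with 9.73 against 9.55 FPKM in Resistant 1 and 14.4 against 8.16 in Resistant 2. In Resistant 1 that pair of neighbours was almost level. By the authors' resistant group mean per kilobase the order was the other way, with IGF1R at 166 and IGFBP7 at 142. IGF2R and IRS1 exchanged places between the clones.

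Summed over the 6 binding proteins, the level was 657 FPKM in Parental 1, 308 in Resistant 1 and 323 in Resistant 2. Both resistant sums lay near each other and below the parental one. IGFBP4 made up 40.5% of the parental sum and 66.4% and 65.0% of the resistant sums. IGFBP3 gave 18.7% in Parental 1 and 7.03% and 9.61% in the resistant clones, and IGFBP6 gave 37.2%, 23.4% and 20.9%. IGFBP5 gave 3.12%, 0.00330% and 0.0142%, and IGFBP7 gave 0.516%, 3.16% and 4.47%. The binding protein RNA of the resistant clones was thus mostly that of IGFBP4, a gene whose own level did not pass the test.

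**Figure D3:**
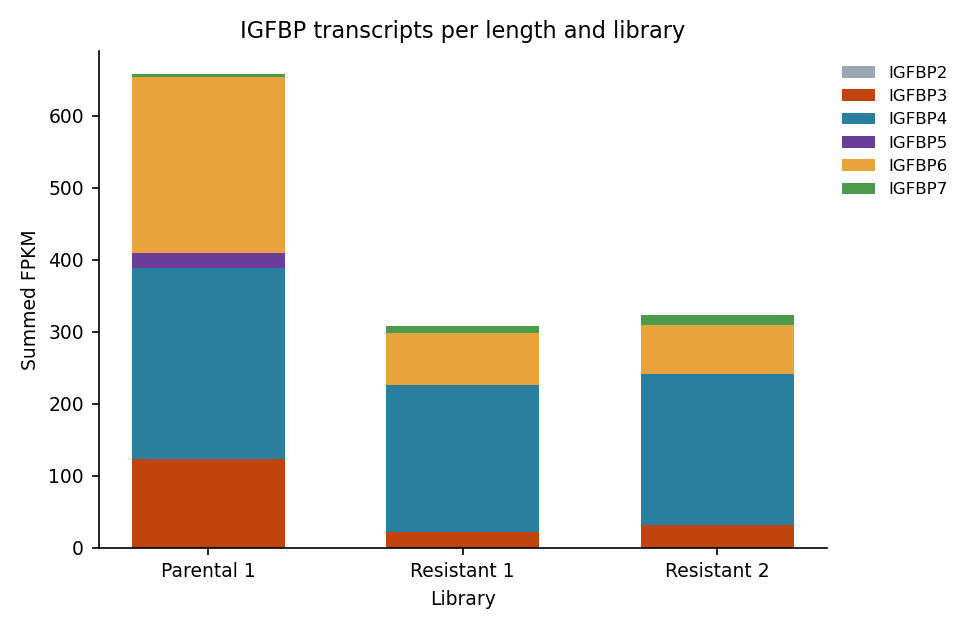
Summed FPKM of the 6 binding protein genes in each of 3 libraries, with 1 stacked colour per gene. The parental bar reaches 657 FPKM and the resistant bars 308 and 323, and the IGFBP3 and IGFBP6 segments are the ones that differ most in height.

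The ligands themselves were measured next. IGF2, the only ligand with more than a few reads, had 1620, 932 and 2115 reads in Parental 1, Resistant 1 and Resistant 2, or 115, 57.0 and 122 CPM. The resistant clones lay on either side of the parental library, and the log2 fold change of -0.36 (95% interval -1.39 to 0.67) did not pass the edgeR test (adjusted p 0.894). IGF1 had 0, 0 and 4 reads, and INS had 0 in all 3 libraries. The binding protein genes that the choice of members left out did not pass either. IGFBP1, which lies 18681 bases from IGFBP3, had 10, 22 and 12 reads (adjusted p 0.927, edgeR). IGFBPL1 had 168, 109 and 206 reads, or 10.6, 6.30 and 10.8 FPKM, a level between those of IGFBP5 and INSR in Parental 1 (adjusted p 0.904).

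Among the receptors, IGF1R (ENSG00000140443, chr15:99192200-99507759, hg19, plus strand), the receptor that carries the mitogenic signal of both growth factors, was lower in both clones. It had 3910, 1786 and 1681 reads in Parental 1, Resistant 1 and Resistant 2, or 278, 109 and 96.9 CPM. The clones differed little from each other (ratio 0.887, 95% counting interval 0.829 to 0.948). The log2 fold change of -1.43 ± 0.32 (95% interval -2.16 to -0.70) is 2.69-fold lower and did not pass the edgeR test (adjusted p 0.13, unadjusted 0.0018). It passed in 1 of the 7 other fits, that of DESeq2 (adjusted p 0.022), and the range over those fits was 0.022 to 0.726. The authors' group means were 1956 and 4042, a 2.07-fold difference. An antisense transcript within the gene, RP11-654A16.3, had 9, 2 and 0 reads, few beside those of IGF1R.

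IGF2R (ENSG00000197081, chr6:160390131-160534539, hg19, plus strand) was the most abundant receptor transcript and was nearly level. Its reads were 7694, 10207 and 9201 in Parental 1, Resistant 1 and Resistant 2, or 547, 625 and 530 CPM. The parental value lay between those of the clones, and the log2 fold change was 0.08 (95% interval -0.76 to 0.91, adjusted p 0.983, edgeR). INSR (ENSG00000171105, chr19:7112266-7294045, hg19, minus strand), the insulin receptor, had 595, 404 and 979 reads, or 42.3, 24.7 and 56.4 CPM. The clones again lay on either side of the parental library, and they differed from each other 2.28-fold (95% counting interval 2.03 to 2.57). The log2 fold change of INSR was -0.06 (95% interval -1.17 to 1.06), with an adjusted p of 0.991.

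The summed FPKM of the 3 receptors was 85.9, 83.3 and 72.4 in Parental 1, Resistant 1 and Resistant 2, a narrower range than that of the binding proteins. The balance within the sum was different. The ratio of IGF2R to IGF1R per length was 2.55 in Parental 1 and 7.42 and 7.11 in the clones. The ratio of IGF1R to INSR was 4.99 in Parental 1, 3.35 in Resistant 1 and 1.30 in Resistant 2. The first ratio was alike in both clones, whereas the second differed between them with the level of INSR.

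IRS1 (ENSG00000169047, chr2:227599757-227664475, hg19, minus strand), the docking protein that both kinases phosphorylate, had 3692, 3506 and 6808 reads in Parental 1, Resistant 1 and Resistant 2. The levels were 262, 215 and 392 CPM, one clone below and one above the parental library. The log2 fold change was 0.21 (95% interval -0.76 to 1.19), with an adjusted p of 0.945 (edgeR). The clones differed 1.83-fold from each other (95% counting interval 1.76 to 1.91).

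The resistant clones were thus not interchangeable for every member. Over 15562 genes with reads in both, the median gene differed 1.29-fold between them, 31.2% of genes differed more than 1.5-fold and 12.7% more than 2-fold. IGFBP5 and IGFBP2 lay 4.71-fold and 3.77-fold apart, but on 5 or fewer reads a clone. Among the other members INSR lay furthest apart, with 8.83% of genes showing a larger difference, and IRS1 followed with 16.4%. IGFBP6 and IGFBP4 were among the closest, as 93.8% and 85.8% of genes differed more. Of the 9 tested members, 5 were lower than Parental 1 in both clones, 1 was higher in both, and 3 (IGF2R, INSR and IRS1) lay on either side. Of all genes tested, 34.5% were lower in both clones and 35.2% were higher in both, so that lying on one side in both clones was common.

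The other genes of the pathway were taken from 9 lists of 94 genes, 92 of which were found in the table. Of the 82 that passed the filter, none passed the edgeR test in either direction, while 11 had an unadjusted p under 0.05, as did 1496 of all 15643 genes tested. DESeq2 called 1 higher (PLAU) and 1 lower (GRB10). At least 2-fold in both clones were 5 genes higher and 2 lower, beside 5.2% and 3.65% of all genes tested, so that these counts were near the background. The median log2 fold change of the 82 genes was 0.16.

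GRB10, an adaptor that binds and restrains the insulin and IGF1 receptors, was the pathway gene with the largest difference. It had 868, 31 and 139 reads in Parental 1, Resistant 1 and Resistant 2, or 61.7, 1.90 and 8.01 CPM. Both clones were far below the parental library but unlike each other. Its log2 fold change was -3.63 ± 0.65, with an adjusted p of 0.0561 in the edgeR test, and it passed in 4 of 7 other fits (adjusted p 2.53e-05 to 0.726). The ratio of the authors' group means was -2.73 on the log2(value + 1) scale. SOCS3, a feedback inhibitor that also acts on insulin signalling, stood at 17.7, 47.6 and 43.6 CPM (adjusted p 0.254, edgeR). GRB10 and SOCS3 were the 2 of 13 tested genes of the adaptor list that differed at least 2-fold in both clones. That list also holds phosphatases and feedback inhibitors. GRB10 was lower and SOCS3 higher, beside 3.65% of all genes tested lower and 5.2% higher by this rule. IRS2, the close relative of IRS1, stood at 100.3, 97.4 and 266 CPM, again with the higher value in Resistant 2 (adjusted p 0.71), and was named after its values were seen.

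Proteases that cut binding proteins, and their inhibitors, gave 10 tested genes with a median log2 fold change of 0.53, none of which passed. PLAU, the urokinase that generates plasmin, stood at 166, 374 and 471 CPM in Parental 1, Resistant 1 and Resistant 2, which is 1.35 higher on the log2 scale (adjusted p 0.258, edgeR). STC1, an inhibitor of PAPPA, stood at 1.49, 3.31 and 3.63 CPM (adjusted p 0.588). For STC1 the authors' group means did not share this direction, at 38.7 in resistant and 40.1 in parental cells. PLAU and STC1 were higher in both clones, but neither passed. Not every gene of the list was higher. CTSD, the most abundant of the list per length in Parental 1, was lower in both clones, at 318, 187 and 142 CPM (adjusted p 0.424, edgeR). STC2, of the same list, stood at 204, 262 and 376 CPM (adjusted p 0.674, edgeR). CTSD and STC2 were named after their values were seen.

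Of 9 tested relatives that carry an IGFBP domain, 2 were at least 2-fold higher in both clones, beside 5.2% of all genes tested, and neither passed the test. CYR61, a matricellular protein of the CCN family, stood at 32.4, 92.2 and 67.0 CPM in Parental 1, Resistant 1 and Resistant 2 (adjusted p 0.286, edgeR). KAZALD1 stood at 0.639, 2.14 and 2.48 CPM (adjusted p 0.466, edgeR). Its difference was 3.62-fold in the edgeR fit and 2.14-fold by the authors' group means (26.7 in resistant and 11.95 in parental cells). Among 26 genes of the PI3K, AKT and mTOR list the median log2 fold change was 0.03. FOXO6, a forkhead factor, was the only one of them at least 2-fold apart in both clones, at 3.98, 0.490 and 1.15 CPM (adjusted p 0.278, edgeR). Its difference was 4.81-fold in the edgeR fit and 2.23-fold by the authors' group means (35.8 in resistant and 81.0 in parental cells). The 12 RAS and MAPK genes had a median of 0.24, the 6 receptor partners one of -0.05 and the 2 IGF2 mRNA-binding proteins one of 0.35, and none of these genes differed 2-fold in both clones. Beside the median of 0.03 over all genes tested, the PI3K, AKT and mTOR list was level and the RAS and MAPK list slightly higher.

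**Figure D4:**
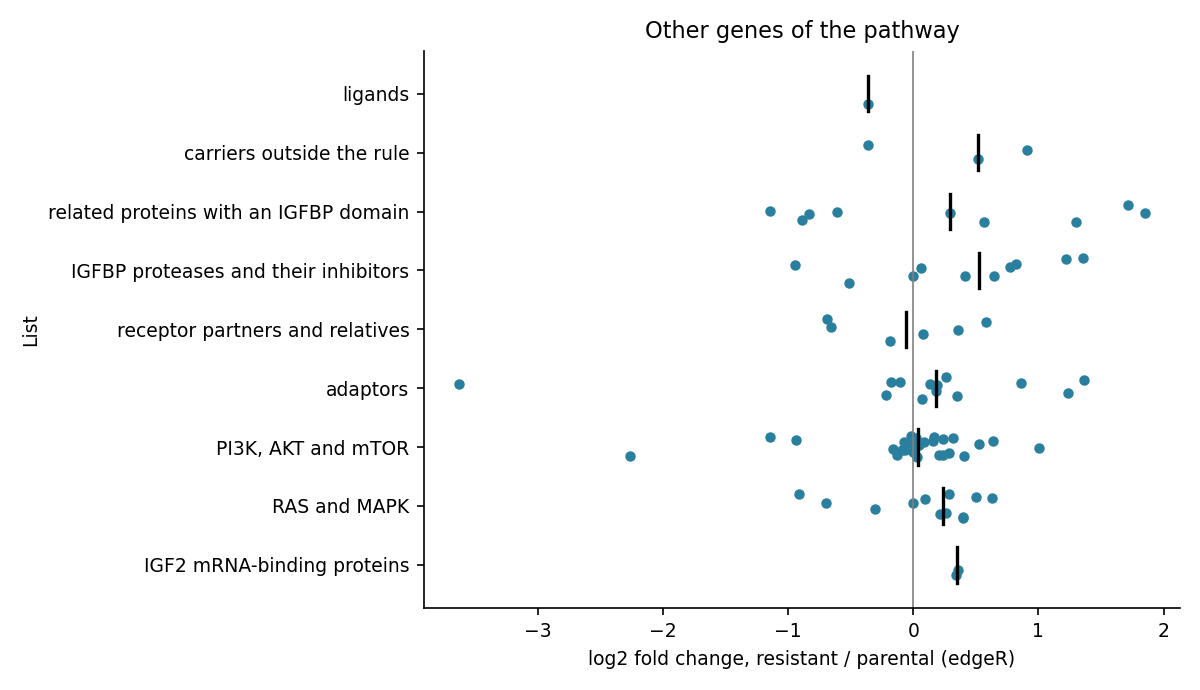
log2 fold change of resistant against parental (edgeR) for the 82 tested genes of 9 pathway lists, each point being 1 gene and each bar the median of its list. GRB10, in the adaptor list at -3.63, lies farthest from 0, and no gene passed the adjusted p of 0.05.

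The genes with the profile most like that of IGFBP3 over the 3 libraries were found by the Euclidean distance between centred log2(CPM + 1) values. They were WNT9A (distance 0.117), VWA2 (0.128), TNNI2 (0.141), SYT8 (0.151) and PRKCDBP (0.155). Their log2 fold changes ran from -3.57 for TNNI2 to -2.15 for PRKCDBP, and their adjusted p from 0.0546 to 0.0969 (edgeR), so that none passed. For IGFBP7 the nearest were C10orf10 (0.0407), SGSH (0.0523), RP11-59D5__B.2 (0.0532), ENTPD2 (0.0679) and CNTNAP1 (0.0714), with log2 fold changes of 1.86 to 2.78. Their adjusted p ran from 0.239 to 0.285 (edgeR), so that none of these passed either. By the authors' group means the log2 ratios were smaller in size for every gene of both lists. They ran from -3.18 to -1.51 for the genes like IGFBP3 and from 0.64 to 2.06 for those like IGFBP7. With 3 libraries, many genes can share a profile, and the lists are descriptions.

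The members were also set against the genes around them. Around IGFBP3, the 36 tested genes within 2 Mb had a median log2 fold change of 0.24, none passed the test and none was as far below 0 as IGFBP3. Around IGFBP5, the 25 tested genes had a median of -0.02 and none was as low. The neighbourhoods of both genes were thus near level or slightly above the parental library.

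The neighbourhood of IGFBP6 was lower as a whole. Its 50 tested neighbours within 2 Mb had a median log2 fold change of -0.60, with -0.44 in Resistant 1 and -0.79 in Resistant 2, and 38 lay below 0. Within 5 Mb, 150 of 178 genes lay below 0. The 3 neighbours that passed the edgeR test, named for that, were the keratin genes KRT4 (-8.55, adjusted p 0.00248) and KRT5 (-4.52, 0.00216) and the integrin gene ITGB7 (-3.80, 0.0217), and they were the 3 genes that lay lower than IGFBP6. IGF1R also lay among genes with lower values. All 9 of its tested neighbours within 2 Mb were below 0 with a median of -0.63, 2 of them lower than IGF1R, and none passed. By the authors' group means the same neighbourhoods had medians of -0.37 and -0.71. DNA copy number was not measured, and the part of the surrounding region in the values of IGFBP6 and IGF1R was not tested.

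Around IGFBP7, 17 tested genes had a median of 0.51, and 1 lay higher (KDR, with 0, 7 and 20 reads). The medians within 2 Mb were 0.06 around IGFBP4 (87 genes), 0.06 around IGF2R (27 genes), 0.09 around INSR (65 genes), 0.73 around IRS1 (10 genes, and 0.14 over 40 genes within 5 Mb) and -0.01 around IGFBP2 (22 genes). Around INSR the clones went apart, with medians of -0.37 in Resistant 1 and 0.41 in Resistant 2, the same order as INSR itself.

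**Figure D5:**
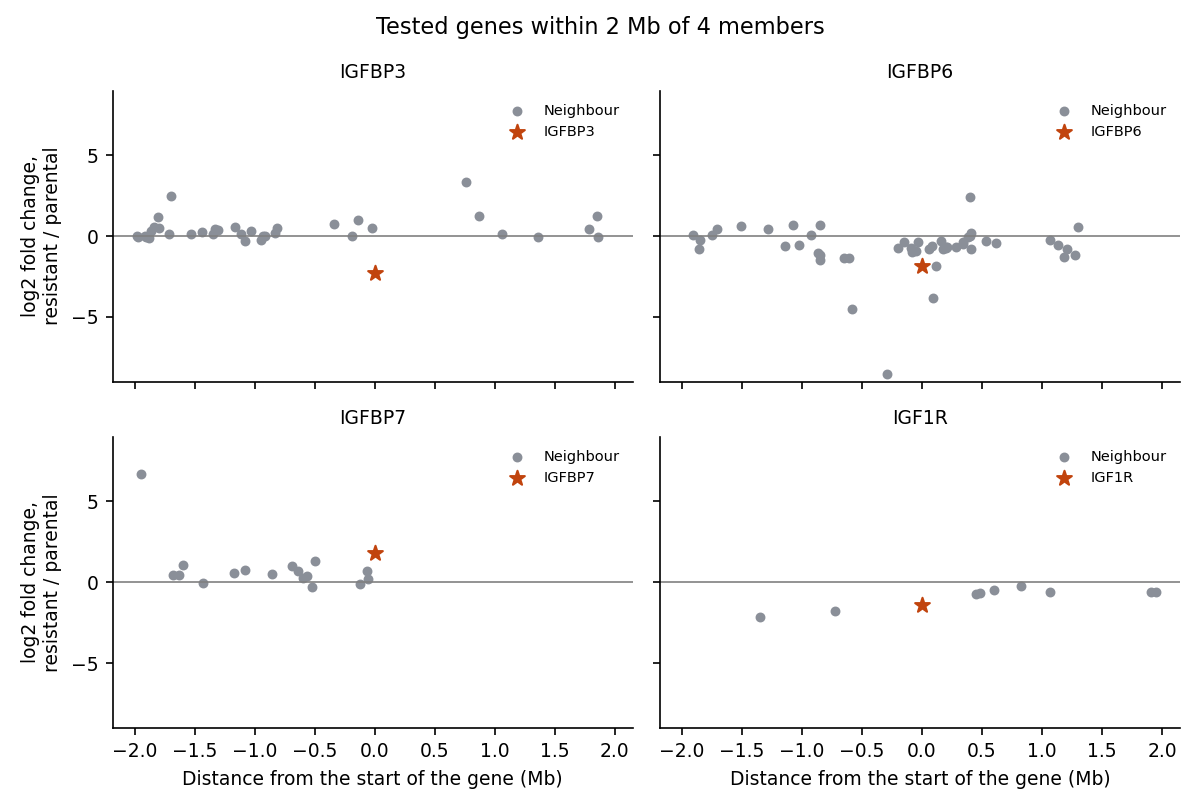
log2 fold change of resistant against parental (edgeR) for tested genes within 2 Mb of 4 members, by distance from the start of the member, with stars for the member and grey points for neighbours. IGFBP3 lies alone below its neighbours, whereas most neighbours of IGFBP6 and all 9 of IGF1R are also below 0. KDR, the highest point beside IGFBP7, had no parental reads and is drawn at a value that depends on the prior count.

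The label of a bladder cancer line was checked with markers. All 11 epithelial and urothelial markers were found, with a summed level of 5516, 4345 and 4660 FPKM in Parental 1, Resistant 1 and Resistant 2, and KRT19 was the most abundant (3016, 2667 and 3423 FPKM). KRT5, a basal keratin, was lower in both resistant clones used here (272, 9.79 and 13.8 CPM, adjusted p 0.00216, edgeR). By the authors' group means, 2047 in resistant and 11544 in parental cells, its difference was smaller (5.64-fold). The resistant mean far exceeds the 160 and 240 reads of Resistant 1 and Resistant 2, and it also covers a clone not analysed here. A fall of KRT5 in every resistant clone was therefore not shown. KRT17 stood at 196, 17.2 and 53.4 CPM (adjusted p 0.129). The 6 fibroblast markers found summed to 26.1, 24.9 and 23.2 FPKM. Most of this was COL1A1, with 1591, 1584 and 1063 reads, and COL1A2, with 835, 946 and 1458 reads. The other four were low, with LUM at 0 reads in every library, COL3A1 at 0, 0 and 2 reads, PDGFRB at 2, 4 and 2 reads and PDGFRA at 12, 5 and 19 reads. The part of these markers in the values of the members was not tested. Endothelial markers summed to 0.0469, 0.0972 and 0.301 FPKM, with KDR the most abundant in the clones and CDH5 at 0, 0 and 1 reads. Smooth muscle markers summed to 1.66, 3.92 and 2.93 FPKM, mostly ACTA2, and immune markers to 0.0781, 0.162 and 0.0462 FPKM.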

How the data were processed

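RNA-seq counts of 5637 cells were taken from 1 table of 29960 genes. Whole-number read counts and FPKM were deposited by the authors for each library, with a mean of normalised counts per group (a signal that pools libraries) and the authors' own DESeq2 comparison, whose columns were neither used nor compared. CASAVA 1.8 and hg19 are named in the submitters' processing notes. The aligner, the counter and the annotation are not given in the sources used here. The deposited FPKM values equalled count over length and library total. Another 6 columns, of 3 libraries without labels here, were not used.

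Genes were filtered with filterByExpr (minimum count 10), scaled by TMM and tested with the edgeR (4.0.16, R 4.3.3) quasi-likelihood test, resistant against parental, with Benjamini-Hochberg adjustment over 15643 genes at 0.05. CPM values are per TMM-scaled total of the genes tested. A fold between the authors' group means, linear or log2, is of value + 1, and counting intervals are exact at 95%. DESeq2 1.42.0, other scalings, other filters, other quasi-likelihood settings and leaving out each resistant library were tried as alternatives. Scripts were tested on simulated data. Precision is set by 3 libraries, and p-values rest only on the spread between 2 resistant clones, shared across genes. Promoters came from RefSeq (GRCh38.p14, 250 bases before the start), which gave 9 of the 10 members. Named were the 10 members, the ligands, IGFBP1 and IGFBPL1, list genes called or at least 2-fold apart in both clones, and the 5 genes most like IGFBP3 and IGFBP7. Members and lists were chosen with earlier results of these data known.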

Additional observations from a re-analysis of the deposited data

How the results depend on the processing

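Over 7 other fits, IGFBP3 and IGFBP5 passed in 6, IGFBP6 in 4, IGF1R in 1 and IGFBP7 in none, and each of these 5 genes kept its direction in all of them. The fit with no filter on low counts called 0 genes higher and 0 lower (edgeR, 1261 of 26434 genes at an unadjusted p under 0.05) and so 0 members, with adjusted p of 0.726 for IGFBP3, 0.378 for IGFBP5 and 0.726 for IGFBP6, and the cause was not tested. Against 21 genes higher and 70 lower, DESeq2 called 121 and 125, relative log expression scaling 62 and 116, library totals alone 62 and 110, and the earlier quasi-likelihood form 46 and 91. An unadjusted p under 0.05, chosen after seeing the data, gave 728 and 768 genes, and a 2-fold difference in both clones 813 and 571. By either of these rules 1 member was higher instead of 0. For the pathway lists, with 0 calls either way, DESeq2 called 1 higher (PLAU) and 1 lower (GRB10), both scalings and the earlier form 1 lower (GRB10), and the 2-fold rule 5 higher and 2 lower. Leaving out a resistant clone moved the log2 fold change of IGF2R between -0.043 and 0.19, of INSR between -0.77 and 0.42 and of IRS1 between -0.29 and 0.58, so these have no settled direction. The same step, which leaves no residual degrees of freedom and so no test, gave -2.59 to -2.01 for IGFBP3, -11.07 to -8.83 for IGFBP5 and -1.89 to -1.85 for IGFBP6. No paired analysis was made, because the study describes independently derived clones and the sources used here pair no parental clone with a resistant one. With 1 labelled parental library used, the parental spread was not estimated here, and 5 or fewer reads limit IGFBP2 and IGFBP5 in the clones.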
